A study of Mus musculus with 2 samples.

Results

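MHC class I and class II genes were examined in LSKs of the Scl/tTA-BA mouse, a tet-off model of chronic myelogenous leukemia. The members were chosen by name. They were the table rows whose symbols begin with H2-, without rows marked -ps, together with B2m, Tap1, Tap2, Tapbp, Cd74, Ciita, Cd1d1, Mr1 and Erap1. This gave 50 of 34745 genes, sorted into 32 class I genes, 9 class II genes, 6 genes of antigen processing and 3 remaining H2 rows that belong to no such class. At least 1 read was found on 36 of them, and 29 had at least 20 reads over both libraries, which is the minimum used here for a ratio.

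LSKs are lineage-negative, Sca1-positive and c-Kit-positive cells, the compartment of the bone marrow (BM) that holds the hematopoietic stem cells and early progenitors. Both groups were double-transgenic mice on the C57BL/6 background that carried Scl/tTA, a transactivator under the control of Scl regulatory sequence active in stem and progenitor cells, and TRE-BA, the BCR/ABL transgene that it drives. Mice were kept on doxycycline, which holds the transactivator off. The week-0 library was made from LSKs of 3 mice mixed together at the time of withdrawal, and the week-3 library from LSKs of 3 mice mixed together 3 weeks later. There was no library of mice without the transgenes, and the age of the mice was not used here.

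MHC class I molecules consist of a polymorphic heavy chain and beta-2 microglobulin, and show peptides from inside the cell to CD8-positive T cells and to natural killer cells. The peptides are cut by the proteasome, carried into the endoplasmic reticulum by the TAP transporter, trimmed by Erap1 and loaded with the help of tapasin. MHC class II molecules are pairs of an alpha and a beta chain that show peptides from endosomes to CD4-positive T cells. They travel with the invariant chain Cd74, exchange its remnant for peptide with the help of H2-DM, and are restrained in this step by H2-O. Class II is known above all from B cells, dendritic cells and macrophages, and the coactivator Ciita drives its genes, while class I is made by most nucleated cells.

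There was 1 library per time point, so the spread between mice is unknown and no test between the time points was possible. Each gene came with its whole read count and with FPKM, a level in which the count is divided by the gene's exon length and by the library's reads. Totals over genes were 6356164 reads in the week-0 library against 3886695 in the week-3 library. A change is given as the log2 ratio of week-3 over week-0, after division by these totals, and is the same as the log2 ratio of the FPKM. Its 95% interval is an exact Clopper-Pearson interval from the 2 read numbers and covers counting error only. A gene was called higher when the ratio was at least 2 and lower when it was at most 0.5. Among the 12192 genes of the whole transcriptome with at least 20 reads, 10.6% were called higher and 15.6% were called lower, and the median log2 ratio was 0.07. Scaling by TMM or by median of ratios in place of total reads would move every log2 ratio by -0.11 or -0.09.

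No member was called higher, in any class. Among the class I genes 7 of 16 were called lower, among the class II genes 5 of 8, and among the processing genes 2 of 5, where the transcriptome as a whole had 15.6% in that direction. Of the 7 class I genes, 3 (H2-K2, H2-Q5 and H2-T10) are annotated as pseudogenes, and without such rows 4 of 13 were called lower. The median log2 ratio was -0.93 for class I, -1.50 for class II and -0.20 for processing. The 95% counting interval lay wholly below 0 for 13 class I, 7 class II and 4 processing genes, and lay wholly above 0 for none of the 29. Among the 12192 genes of the transcriptome with at least 20 reads, it lay wholly below 0 for 3479 and wholly above 0 for 4149. The interval lay wholly below -1 on the log2 scale for 5 class I genes, 4 class II genes and 1 processing gene. In the transcriptome this held for 926 of the 12192 genes. The 10 members with such an interval were Cd74, H2-Eb1, H2-Aa, H2-Ab1, H2-Ob, H2-Q6, H2-Q5, H2-Q7, H2-Q4 and the pseudogene H2-K2. The TAP transporter, tapasin and Cd1d1 stood near a ratio of 1.

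**Figure D1:**
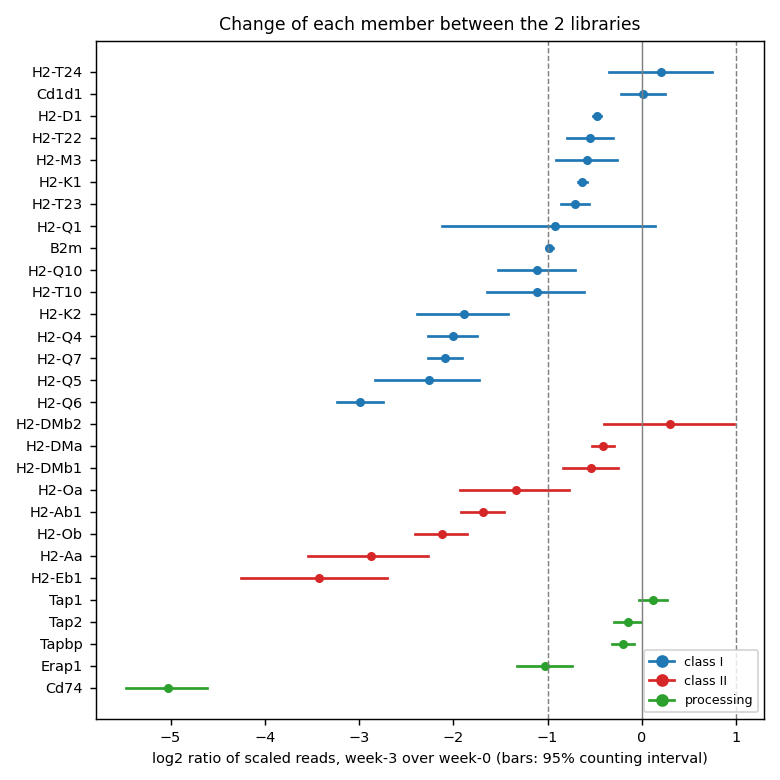
Log2 ratio of scaled reads, week-3 over week-0, for the 29 members with at least 20 reads, in class I (blue), class II (red) and processing (green). Points are ratios, bars are 95% counting intervals, and dashed lines mark the call limits at -1 and 1. No point lies beyond 1 and 14 lie beyond -1, with Cd74 at -5.03 farthest to the left.

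The promoters of these genes carry short elements that are known from the study of MHC expression. The Y box, with the core GATTGG (an inverted CCAAT box), is bound by the NF-Y factor and forms part of the SXY module on which RFX, NF-Y and Ciita or Nlrc5 assemble. Enhancer A of the classical class I genes holds an NF-kappaB site, searched here as GGGGANTCCCC. The interferon-stimulated response element was searched as GAAANNGAAA. RefSeq promoters on GRCm38.p6, from 250 bases before to 50 bases after the start of transcription, were at hand for 36 of the 50 members and were searched on both strands.

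On either strand, the letters of the Y box core were found in the promoters of 8 of 8 class II genes searched, 17 of 24 class I genes and 1 of 3 processing genes. They were also found in 16.1% of all 32851 promoters. In the direction of the gene, GATTGG was read in the 8 class II genes but among class I only in B2m and H2-T22. The other class I matches and that of Tap1 read CCAATC along the gene, which is not the inverted orientation of the Y box. The class I matches included H2-M1, H2-M9, H2-M11 and the H2-M10 rows, which had no read in either library. No promoter was at hand for H2-Ab1 or Cd74. The following windows of 30 bases show it, in capitals, in 4 class II genes that were called lower (H2-Aa, H2-Eb1, H2-Ob and H2-Oa) and in 2 that were not (H2-DMb1 and H2-DMb2). They are written in the direction of the gene.
H2-Aa: agagaattttctGATTGGttctggcgagtt
H2-Eb1: tcctttgatgctGATTGGctcccagcactg
H2-Ob: gtcttcgctcttGATTGGttaacagtgtga
H2-Oa: gagaactgctctGATTGGctgcttaccgca
H2-DMb1: gattcactcagtGATTGGtctgacctgcct
H2-DMb2: aagtcacttagtGATTGGactgacttaact
The windows lie at chr17:34287855-34287884 on the minus strand for H2-Aa, and on the plus strand at chr17:34305795-34305824 for H2-Eb1, chr17:34238835-34238864 for H2-Ob, chr17:34092323-34092352 for H2-Oa, chr17:34153117-34153146 for H2-DMb1 and chr17:34145146-34145175 for H2-DMb2. In the gene models of the tables, which can begin at another start than the RefSeq promoter, the windows of H2-Aa, H2-Eb1 and H2-Ob lie before the gene, that of H2-Oa spans its start, and those of H2-DMb1 and H2-DMb2 lie inside it. For H2-DMa, not shown, the promoter at chr17:34125268-34125567 held the core and that at chr17:34122582-34122881 did not. Both lie before the start of its gene model at chr17:34135182. The core was present in class II promoters whose genes were called lower as well as in those whose genes were not. A match is a description of the letters and not a measured binding site.

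Enhancer A was found in 3 members, H2-K1, H2-D1 and H2-Q6, and in 16 of the 32851 promoters, or 0.0487%. These 3 are shown, with the element in capitals, because H2-K1 and H2-D1 were not called while H2-Q6 had the lowest ratio of class I.
H2-K1: gcccagggctGGGGATTCCCCatctccaca
H2-D1: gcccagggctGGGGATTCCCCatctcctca
H2-Q6: gcccatggctGGGGATTCCCCatctcccca
The windows are chr17:34000439-34000468 on the minus strand for H2-K1, and chr17:35262913-35262942 and chr17:35424667-35424696 on the plus strand for H2-D1 and H2-Q6. In the tables' gene models the windows of H2-K1 and H2-Q6 lie before the gene and that of H2-D1 just inside it. The search left only the letter N of the element open, and this letter was T in the 3 genes. The interferon-stimulated element was found in 4 members, B2m, Erap1, H2-T22 and H2-T23, and in 3.44% of all promoters.

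B2m, which encodes the light chain shared by class I molecules, was the most abundant member. It had 19981 reads at week-0 against 6195 at week-3, or 3655 and 1853 FPKM, and ranked 6th and 18th among the genes of the respective library. Its log2 ratio was -0.98 (95% interval -1.02 to -0.94), so the ratio of 0.507 stood just above the call limit. Under TMM and median-of-ratios scaling B2m passed the limit, with log2 ratios of -1.09 and -1.07.

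H2-K1 and H2-D1 encode the classical heavy chains, which present peptides to CD8-positive T cells. H2-K1 (chr17:33996017-34000333) had 14168 reads at week-0 against 5594 at week-3, or 307 and 198 FPKM, with a log2 ratio of -0.63 (-0.68 to -0.59). H2-D1 (chr17:35262730-35267499) had 14387 and 6314 reads, or 729 and 523 FPKM, with a log2 ratio of -0.48 (-0.52 to -0.44). Both had intervals below 0, and neither was called. The log2 ratio of H2-K1 was slightly lower than that of H2-D1, with a difference of -0.15 (-0.21 to -0.09). The ratio of B2m was lower than that of the 2 heavy chains summed, with a difference of -0.43 (-0.48 to -0.38). FPKM depends on the exon length that the authors used, and for H2-K1 this length, 7271 bases as implied by reads and FPKM, was 2.47 times the 2938 bases of its GENCODE exons. Per kilobase of GENCODE exon and 1000000 reads, H2-K1 had 759 at week-0 against 490 at week-3, whereas H2-D1 had 878 and 630, so the levels of these 2 genes were closer to each other on that scale than in FPKM. The log2 ratios do not depend on the length.

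The H2-Q genes encode nonclassical class I chains, among them the Qa-2 antigen from H2-Q6 and H2-Q7. Reads over the 8 H2-Q rows summed to 5523 at week-0 and 700 at week-3, a log2 ratio of -2.27 (-2.39 to -2.16), and 5 of the 6 with at least 20 reads were called lower. H2-Q6 (chr17:35424850-35430055) had 2035 and 157 reads, or 143 and 18.0 FPKM, with a log2 ratio of -2.99 (-3.23 to -2.75), the lowest of class I. H2-Q7 (chr17:35439155-35443773) had 2027 and 292 reads, or 43.1 and 10.2 FPKM, with a log2 ratio of -2.09 (-2.27 to -1.91). The 2 genes had almost equal read numbers at week-0, and H2-Q6 was lower than H2-Q7 at week-3. The difference of their log2 ratios was -0.90 (-1.20 to -0.60).

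H2-Q4 had 940 reads at week-0 against 143 at week-3, or 37.9 and 9.42 FPKM, with a log2 ratio of -2.01. H2-Q5, annotated as a polymorphic pseudogene, had 258 and 33 reads with a log2 ratio of -2.26. H2-Q10, known as a secreted class I molecule of the liver, had 229 and 65 reads and a log2 ratio of -1.11 (-1.53 to -0.70). H2-Q1 was the member of this group that was not called. It had 31 and 10 reads, and its interval from -2.12 to 0.14 included 0. The H2-Q genes are near-identical in part. Of all stretches of 100 bases in their transcripts, 14.0% for H2-Q5, 12.0% for H2-Q7, 10.8% for H2-Q6 and 8.01% for H2-Q10 also occur in another gene, so the split of reads among them is uncertain, and H2-Q4 shared 2.16% but has 19.1% of its exon bases overlapped by a gene of the other strand. The sum over the group does not depend on the split within it, but 3.28% of the stretches of H2-D1 also occur in H2-Q1 and 0.957% of those of H2-K1 in H2-Q10, so reads of these 2 abundant genes could be counted in it or lost from it.

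**Figure D2:**
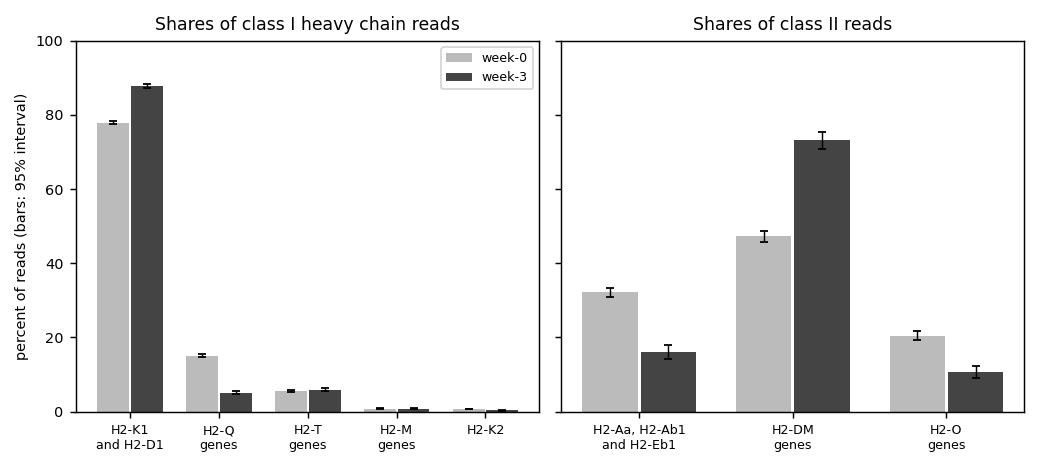
Percent of class I heavy chain reads (left) and of class II reads (right) that fell on each gene group in the week-0 (grey) and week-3 (black) library, with 95% Clopper-Pearson intervals as bars. H2-Q genes went from 15.1% to 5.16% of the heavy chain reads, and H2-DM genes from 47.2% to 73.2% of the class II reads.

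The composition of the class I heavy chain reads differed between the libraries. H2-K1 and H2-D1 made up 77.9% of them at week-0 (77.4% to 78.3%) and 87.8% at week-3 (87.2% to 88.3%), while the H2-Q genes made up 15.1% (14.7% to 15.4%) and 5.16% (4.79% to 5.55%). The share of the H2-T genes was 5.58% (5.34% to 5.82%) and 5.89% (5.50% to 6.30%), intervals that overlap. Relative to H2-K1 and H2-D1 together, the log2 ratio of the H2-Q genes differed by -1.72 (-1.84 to -1.60), and that of the H2-T genes differed by -0.09 (-0.22 to 0.03).

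The H2-T and H2-M genes are further nonclassical class I genes. H2-T23, which encodes Qa-1, the ligand of the CD94/NKG2 receptors of natural killer cells, had 1335 reads at week-0 against 501 at week-3, or 210 and 129 per 1000000, with a log2 ratio of -0.70 (-0.86 to -0.56). H2-T22, a ligand of gamma-delta T cells, had 487 and 204 reads with a log2 ratio of -0.55 (-0.79 to -0.31). H2-T10 had 149 and 42 reads and was called lower at -1.12 (-1.65 to -0.61). H2-T10 is annotated as a polymorphic pseudogene. It shares 7.06% of its 100-base stretches with H2-T22, which itself shares 8.86% with other genes, and genes of the other strand overlap 27.1% of the exon bases of H2-T10 and 29.4% of those of H2-T22, so both values are uncertain. H2-T24 had 71 and 50 reads, with a log2 ratio of 0.20 whose interval (-0.35 to 0.75) included 0. H2-M3, which presents N-formylated peptides, had 279 and 114 reads, or 30.5 and 20.4 FPKM, with a log2 ratio of -0.58 (-0.91 to -0.26).

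Of the remaining class I rows, H2-K2 is a transcribed pseudogene beside H2-K1. It had 266 reads at week-0 against 44 at week-3 and was called lower at -1.89 (-2.38 to -1.42), and its ratio differed from that of H2-K1 by -1.26 (-1.75 to -0.79). Cd1d1, which presents lipids to natural killer T cells, had 409 and 253 reads, or 15.9 and 16.1 FPKM. Its log2 ratio was 0.02 (-0.22 to 0.25), and turned to -0.10 and -0.07 under TMM and median-of-ratios scaling. Mr1, which presents vitamin B metabolites to mucosal-associated invariant T cells, had 13 and 4 reads. H2-M5 had 8 reads at week-0 against 0 at week-3, where 3 reads, or 0.772 per 1000000, is the limit that a count of 0 allows. H2-Q2, H2-Bl and H2-T3 had 3 reads each at week-0. No read at all was found on 11 class I rows, which were H2-Q3 and H2-M rows. Summed over class I, 57082 reads at week-0 against 20019 at week-3 gave 0.898% and 0.515% of the library, a log2 ratio of -0.80 (-0.83 to -0.78).

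**Figure D3:**
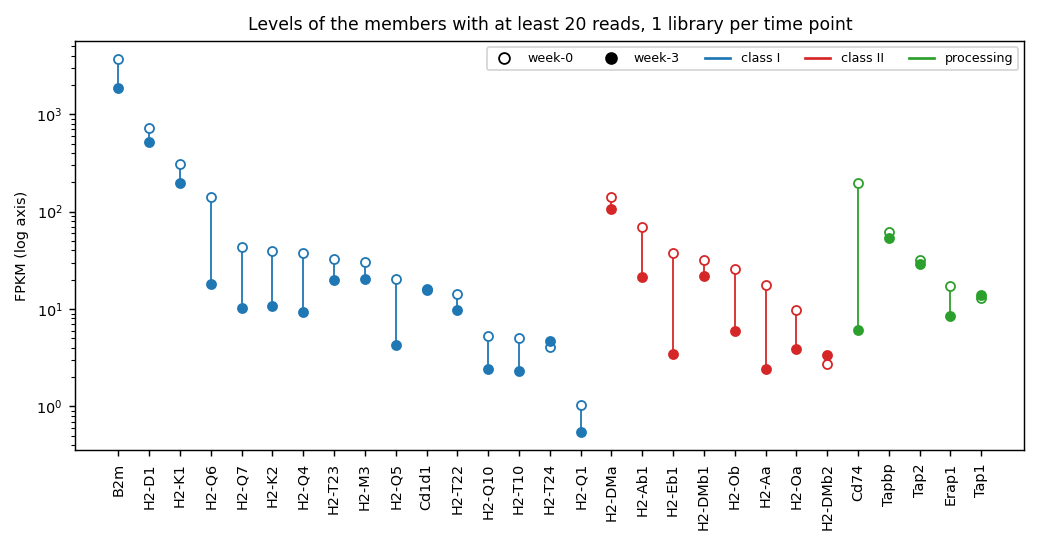
FPKM on a log axis of the 29 members with at least 20 reads in the week-0 library (open circles) and the week-3 library (filled circles), 1 library per time point, ordered within class I (blue), class II (red) and processing (green) by the week-0 level. B2m went from 3655 to 1853, H2-Q6 from 143 to 18.0, and Cd74 from 197 to 6.04.

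Class II reads were fewer than class I reads in both libraries. Over the 9 class II rows, 4997 reads at week-0 against 1483 at week-3 made up 0.0786% and 0.0382% of the library, a log2 ratio of -1.04 (-1.13 to -0.96). Summed by role, the log2 ratio was -2.05 (-2.25 to -1.85) for the peptide-presenting chains H2-Aa, H2-Ab1 and H2-Eb1, -1.99 (-2.24 to -1.75) for the H2-O chains and -0.41 for the H2-DM chains. The intervals of the first 2 overlap, and the H2-DM chains stand apart from both.

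H2-Ab1, H2-Aa and H2-Eb1 encode the chains that carry the peptide to the cell surface. H2-Ab1, the beta chain of I-A (chr17:34263209-34269418), had 1038 reads at week-0 against 197 at week-3, or 69.4 and 21.5 FPKM, with a log2 ratio of -1.69 (-1.92 to -1.47). Its partner H2-Aa (chr17:34282744-34287827) had 288 and 24 reads, or 17.7 and 2.41 FPKM, with a log2 ratio of -2.88 (-3.54 to -2.27). H2-Eb1, the beta chain of I-E (chr17:34305877-34316199), had 281 and 16 reads, or 37.3 and 3.48 FPKM, with a log2 ratio of -3.42 (-4.25 to -2.70). All 3 were called lower, and the intervals of all 3 lay below -1. The log2 ratio of H2-Aa was below that of H2-Ab1, with a difference of -1.19 (-1.89 to -0.54), and so was that of H2-Eb1, with a difference of -1.74 (-2.60 to -0.97), whereas H2-Eb1 and H2-Aa differed by -0.55 (-1.59 to 0.46), an interval that includes 0. H2-Eb2 had 4 and 2 reads.

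The H2-O chains, which restrain peptide exchange, were lower at week-3 too. H2-Ob had 890 reads at week-0 against 125 at week-3, or 25.7 and 5.90 FPKM, with a log2 ratio of -2.12 (-2.40 to -1.85). H2-Oa had 136 and 33 reads, or 9.80 and 3.89 FPKM, with a log2 ratio of -1.33 (-1.93 to -0.78). Both were called lower, and their log2 ratios, H2-Ob minus H2-Oa, differed by -0.79 (-1.42 to -0.13). Of the exon bases of H2-Oa, 22.8% are overlapped by a gene on the other strand.

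The H2-DM chains, which promote peptide exchange, differed less between the libraries. H2-DMa had 1981 reads at week-0 against 912 at week-3, or 141 and 106 FPKM, with a log2 ratio of -0.41 (-0.52 to -0.30). H2-DMb1 had 335 and 141 reads with a log2 ratio of -0.54 (-0.83 to -0.25), and differed from H2-DMa by -0.13 (-0.45 to 0.18). H2-DMb2 had 44 and 33 reads with a log2 ratio of 0.29 (-0.40 to 0.98). None was called. Of the exon bases of H2-DMa, 10.4% are overlapped by Brd2 on the other strand. H2-DMb1 and H2-DMb2 share 11.3% and 10.3% of their 100-base stretches with each other, so the difference of 0.83 (0.07 to 1.58) between them is uncertain. The log2 ratio of H2-Ab1 was below that of H2-DMa, with a difference of -1.28 (-1.53 to -1.03).

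The make-up of the class II reads differed between the libraries. H2-Aa, H2-Ab1 and H2-Eb1 held 32.2% of them at week-0 (30.9% to 33.5%) and 16.0% at week-3 (14.2% to 17.9%). The H2-O genes held 20.5% (19.4% to 21.7%) and 10.7% (9.13% to 12.3%). The H2-DM genes held 47.2% (45.8% to 48.6%) at week-0 against 73.2% (70.9% to 75.5%) at week-3, although their own log2 ratio, summed, was -0.41.

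Cd74, the invariant chain, had the lowest ratio of all members. It had 2505 reads at week-0 against 47 at week-3, or 197 and 6.04 FPKM, with a log2 ratio of -5.03 (-5.47 to -4.61), which is a ratio of 0.0307. Next to H2-Ab1, the difference in log2 ratio was -3.34 (-3.84 to -2.86). Reads over the 6 processing genes summed to a log2 ratio of -0.80 (-0.87 to -0.73), and to -0.17 without Cd74. Ciita, the coactivator of class II genes and of Cd74, was near the limit of detection, with 12 reads at week-0 against 3 later, and its interval from -3.76 to 0.60 included 0.

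Markers of other cells moved between the libraries as well, and in bulk RNA fewer cells of a type and less RNA per cell cannot be told apart. The LSK markers Kit, Ly6a and Cd34 were well detected in both libraries and not called, while Flt3 and Procr were called lower. The log2 ratios of Kit, Ly6a and Cd34 were -0.55, -0.42 and -0.61, with intervals wholly below 0. Over the 7 LSK markers the interval lay wholly below 0 for 6 and wholly above 0 for 1. They summed to 2107 reads per 1000000 at week-0 and 880 at week-3, a log2 ratio of -1.26, with Flt3 holding the most reads. The 7 B cell markers summed to 71.4 reads per 1000000 at week-0 and 57.1 at week-3, most of it Cd79b. Cd79b itself had 314 and 216 reads, a log2 ratio of 0.17 after scaling. Among the other B cell genes, Cd22 had 1 and 0 reads, Ms4a1 had 9 and 2, and Cd79a had 114 and 2. The 8 dendritic cell markers summed to 18.1 and 7.46 per 1000000, with Zbtb46 at 49 and 5 reads, Siglech at 21 and 3 and Batf3 at 3 and 0. Other markers of this list were not lower after scaling, with Itgax at 8 and 8 reads, Xcr1 at 8 and 7 and Cd209a at 1 and 2. The plasma cell markers summed to 866 and 29.6 per 1000000, with 1 gene holding most of both sums. The T cell markers summed to 2.67 and 1.03 per 1000000, which is only 17 and 4 reads, and the interval of their log2 ratio (-3.41 to 0.24) included 0. The monocyte and macrophage markers went the other way, from 234 to 960 per 1000000, and the mast cell and basophil markers from 139 to 2371. For comparison, Cd74 stood at 394 and 12.1 per 1000000, and class II at 786 and 382. The part of these cell types in the class II and Cd74 values was not tested.

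The class I processing genes were close to a ratio of 1, except for Erap1. Tap1, the first subunit of the peptide transporter, had 959 reads at week-0 against 638 at week-3, or 12.9 and 14.0 FPKM, with a log2 ratio of 0.12 (-0.03 to 0.27). Tap2, the second subunit, had 1095 and 603 reads, or 32.1 and 28.9 FPKM, with a log2 ratio of -0.15 (-0.30 to -0.01). Tapbp, which encodes tapasin, had 1857 and 989 reads, or 62.0 and 54.0 FPKM, with a log2 ratio of -0.20 (-0.31 to -0.09). The 3 together gave a log2 ratio of -0.10, about the size of the shift that another scaling brings. Erap1, the aminopeptidase that trims peptides in the endoplasmic reticulum, had 440 and 132 reads, or 17.2 and 8.46 FPKM. Its log2 ratio of -1.03 (-1.32 to -0.74) was called lower, and lay below that of the 3 genes together, with a difference of -0.93 (-1.23 to -0.63). Other genes overlap 29.02% of the exon bases of Tapbp, in part on the same strand, 18.5% of those of Tap2, 11.5% of those of Erap1 and 3.87% of those of Tap1.

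Other genes of antigen presentation were taken from lists by role and described by the same rule. In the class I pathway list, 2 of 10 genes were called higher and 0 lower, beside 10.6% and 15.6% of all genes, with a median of 0.35. The 2 were the chaperones Calr (1687 and 2350 reads, log2 ratio 1.19) and Canx (1990 and 2722 reads, log2 ratio 1.16), which assist the folding of class I chains among many other glycoproteins. The immunoproteasome subunits Psmb8, Psmb9 and Psmb10 had log2 ratios of 0.55, 0.18 and 0.25. Nlrc5, the coactivator of class I genes, had 280 and 117 reads and a log2 ratio of -0.55 (-0.87 to -0.23).

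In the class II pathway list, 1 of 12 genes was called higher and 1 lower, which is no more than the 10.6% and 15.6% of all genes, with a median of 0.13. The thiol reductase Ifi30 had 119 and 177 reads, with a log2 ratio of 1.28. Nfya, a subunit of the factor that binds the Y box shown above, had 650 and 103 reads, with a log2 ratio of -1.95 (-2.26 to -1.65), while Nfyb and Nfyc had 0.71 and 0.00. The RFX subunits Rfx5, Rfxap and Rfxank had between 23 and 106 reads per library and intervals that included 0. The endosomal proteases Ctss, Ctsl, Ctsb and Lgmn had log2 ratios between -0.05 and 0.27.

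In the list of interferon receptors and signalling genes, 1 of 13 was called higher and 4 were called lower, beside 10.6% and 15.6% of all genes, with a median of -0.47. Interferons are known inducers of MHC genes. The receptor chain Ifngr2 was called higher at 1.15, and Socs1 (-1.53), Irf9 (-1.30), Irf1 (-1.29) and Stat2 (-1.21) were called lower. Irf1 had 1168 reads at week-0 against 293 at week-3.

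**Figure D4:**
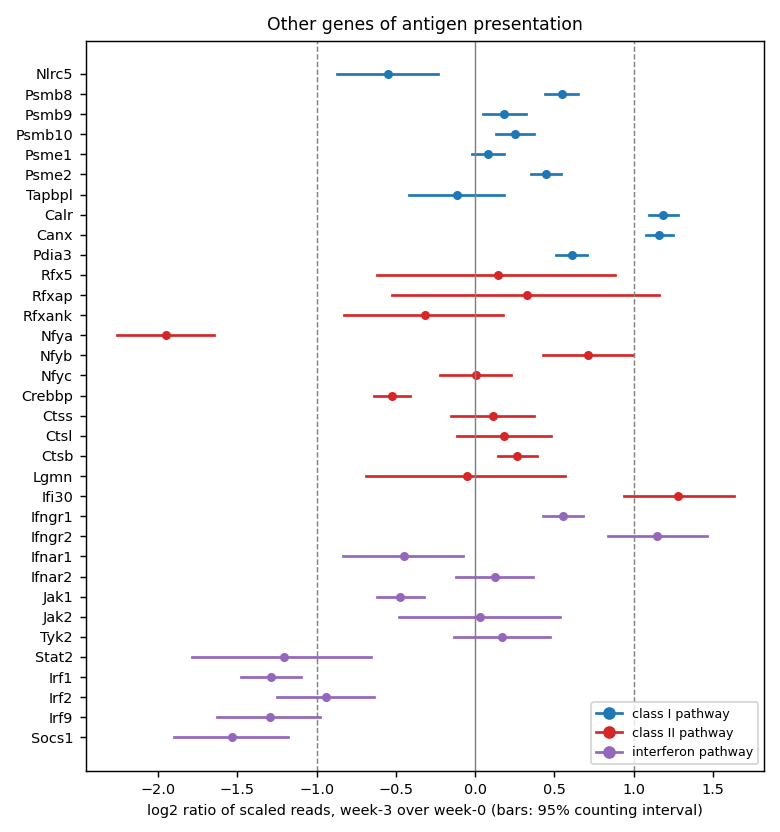
Log2 ratio of scaled reads, week-3 over week-0, with 95% counting intervals as bars, for other genes of antigen presentation in the class I list (blue), class II list (red) and interferon list (purple). Dashed lines mark -1 and 1. Nfya at -1.95 is farthest left and Ifi30 at 1.28 farthest right.

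Most members lie together in the MHC region of chromosome 17. Between Tapbp and H2-M2 (chr17:33915899-37483552, 3.57 megabases) 25 members with at least 20 reads had a median log2 ratio of -0.88, and 12 were called lower. The 81 other genes with at least 20 reads in the same stretch had a median of 0.00, with 14 called lower (17.3%) and 7 called higher. Called and uncalled members lay side by side. From H2-Oa, called lower, the order along the chromosome ran through H2-DMa, H2-DMb2 and H2-DMb1, Tap1 and Tap2, none of which was called, to H2-Ob, H2-Ab1, H2-Aa and H2-Eb1, all of which were called lower. Between Tap1 and Tap2 lies Psmb8, at 0.55.

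**Figure D5:**
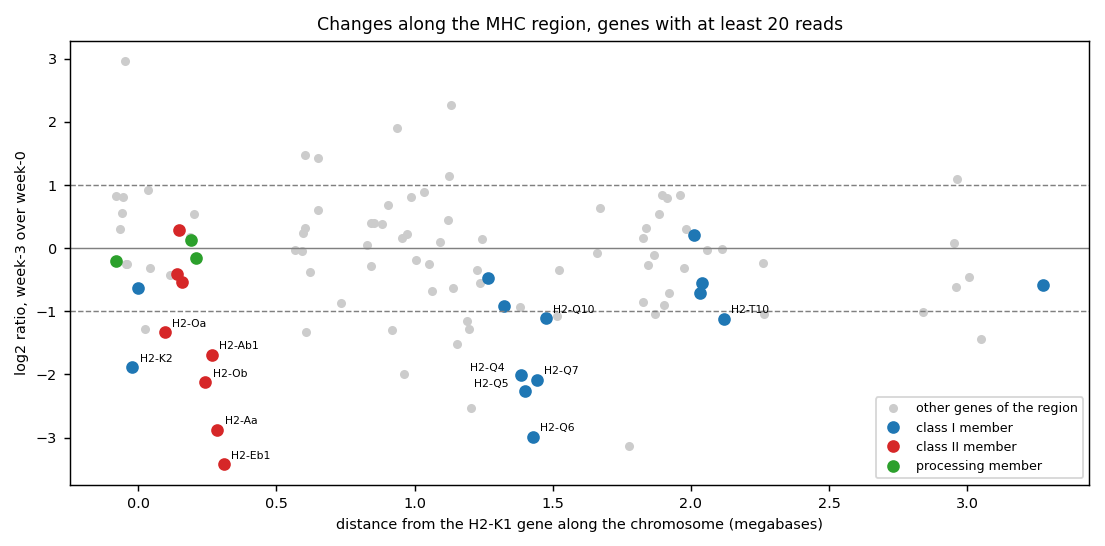
Log2 ratio, week-3 over week-0, of genes with at least 20 reads against the distance in megabases from the H2-K1 gene, with members in colour, other genes of the region in grey, and dashed lines at -1 and 1. Members called lower are named. Beside H2-K2 and H2-T10, they form a class II group within 0.5 megabases of H2-K1 and an H2-Q group near 1.4 megabases. Between these groups lie the uncalled member H2-D1 and other genes of the region, of which some were called lower, some higher and some not called.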

How the data were processed

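LSKs of 3 mice per time point were mixed and sequenced as 1 library at week-0 and 1 at week-3. Per the paper's methods, the authors used a SMARTer low-input cDNA kit and read both ends of each fragment over 100 bases, and TopHat2 2.0.9 placed the trimmed reads on GRCm38. The deposited counts are whole reads per gene without normalization, and the deposited FPKM were scaled by the authors by exon length and total reads. The counting tool, its strand setting, its treatment of reads with several matches and the annotation release are not given in the sources used here. Without a strand setting, genes that overlap on opposite strands cannot be told apart.

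Depth was 6356164 and 3886695 reads, so that 3 reads are 0.472 and 0.772 per 1000000. Counts were divided by these totals, and genes with at least 20 reads over both libraries were called at a ratio of at least 2 or at most 0.5. With 1 library per time point no test that estimates the spread between mice was possible. Intervals (95%, exact Clopper-Pearson, and exact conditional odds-ratio intervals for differences between genes, of which 17 were computed) cover counting error only and take reads as independent. Amplified cDNA reads are not independent molecules, so the intervals can be too narrow even for counting error. Medians were taken with 0.5 reads added to each library. Coordinates are those of the tables on GRCm38. Biotype, overlap and exon length came from GENCODE M21 and promoters from RefSeq. The exon length implied by reads and FPKM was more than 1.2 times the GENCODE length in 17 of 29 members and less than it by as much in 5, which bears on levels between genes and not on ratios.

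Every member with at least 20 reads, and genes of the other lists with at least 20 reads, could be named with values, and members below that by their reads. Marker genes are given by reads. Single values of 3 genes of these lists are not reported here, although the lists' counts and sums include them. The members and lists were chosen with earlier results of these data known. Alternatives were TMM (edgeR 4.0.16) and median-of-ratios scaling (DESeq2 1.42.0), other read minimums and ratio limits, a pseudocount of 1 FPKM, sums without the most abundant gene, and edgeR's exact test with an assumed biological variation of 0.1 or 0.4 together with the ratio limits, which compares the libraries and not the conditions and whose calls were counted without printing p-values. The class I results without pseudogene rows, the processing sum without Cd74, and levels per GENCODE exon length, were added after seeing the data. Calls and intervals were tested on simulated counts with counting error only. Spread between mice and amplification were not simulated, so their effect on the intervals was not tested. Further software was scipy 1.17.1, numpy 2.4.6, pandas 2.3.3 and matplotlib 3.10.9 under Python 3.11.15, and R 4.3.3.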

Additional observations from a re-analysis of the deposited data

How the results depend on the processing

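With 1 library per time point no replicate could be left out. No paired analysis was possible because there is 1 library per time point. Under TMM and median-of-ratios scaling, 9 class I genes were called lower in place of 7, the additional ones being B2m and H2-Q1. These scalings lower every ratio, and over all genes 2134 and 2091 were called lower in place of 1903. The summed log2 ratio under these scalings was -0.91 and -0.89 for class I, -1.16 and -1.13 for class II, and -0.91 and -0.89 for processing. Single members stayed within their counting interval in 26 of 29 cases under each, and Cd1d1 changed sign. The 3 others were B2m, H2-K1 and H2-D1, the members with the most reads. Each scaling shifts all ratios alike, so staying within the interval depends only on its width and is no check of a single member. With ratio limits of 1.5 and 0.67, class I had 12 genes called lower. Without pseudogene rows it had 4. EdgeR with an assumed variation of 0.1, required together with the ratio limit, gave 7, 5 and 2 genes called lower in class I, class II and processing. With 0.4 it gave 1, 1 and 1, namely H2-Q6, H2-Eb1 and Cd74. No alternative called a member higher. Over all genes, 3920 were called higher and 5120 lower with at least 1 read, and 2894 and 3024 with limits of 1.5 and 0.67. With edgeR these numbers were 1148 and 1651 at an assumed variation of 0.1, and 50 and 199 at 0.4. Sums leaned on single genes. Class I gave -0.71 without B2m, class II gave -1.69 without H2-DMa, and processing gave -1.11 without Tapbp and -0.17 without Cd74, the latter chosen after seeing the data. The causes of these differences were not tested. Depth limits Ciita, Mr1 and H2-Eb2, whose reads are too few for a direction, and the spread between mice is unknown for every value.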

Other observations

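The 3 remaining H2 rows, H2-Ke6, H2-Pa and H2-Pb, had 0 reads in both libraries. H2-Ke6, which is no MHC gene but lies in the region, has 86.4% of its exon bases overlapped by Gm20427 on the same strand, and Gm20427 also had 0 reads, so its level cannot be read from the tables. H2-Ea-ps, the row of the I-E alpha chain, which is known to be defective in C57BL/6 mice, had 0 reads in both libraries, while H2-Eb1, its beta partner, had 281 and 16. Of the class I-like rows with Gm names, Gm11127 had 15 reads at week-0 against 9 at week-3, and Gm8909, Gm10499 and Gm7030 had at most 2.

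Among the genes between the members of the MHC region, chosen here after their values were seen, Tnf had 1131 reads at week-0 against 119 at week-3, with a log2 ratio of -2.54, and Ltb had 411 and 104, with a log2 ratio of -1.27. Both encode cytokines of the tumor necrosis factor family. Prrc2a had 3300 and 701 reads, with a log2 ratio of -1.53. In the other direction, Neu1, a lysosomal sialidase, had 155 and 354 reads, with a log2 ratio of 1.90.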
